A study of Homo sapiens with 12 samples.

Results

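Beta-catenin and 9 genes of the Wnt pathway that it regulates were followed in HCT116 cells exposed to ammonium chloride (NH4Cl) and TGF-β. The genes were CTNNB1, which encodes beta-catenin, and AXIN2, NKD1, APCDD1, RNF43, ZNRF3, LGR5, ASCL2, TCF7 and LEF1. They make up 10 of the 25733 genes in the deposited table, and all of them were found. They were chosen from the readout, because HCT116 cells depend on Wnt signalling and because CTNNB1 was lower with NH4Cl. The comparison of NH4Cl with control is therefore given for these genes as a description, without a test.

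Wnt ligands bind Frizzled and LRP receptors and halt a destruction complex of APC, AXIN and the kinases GSK3 and CK1, which otherwise marks beta-catenin for degradation. The beta-catenin that accumulates enters the nucleus and activates genes together with TCF and LEF factors, among them genes that dampen the pathway again. This route maintains the stem cells of the intestinal crypt and is activated in most colorectal cancers. HCT116 is an established human colorectal cancer line that carries an activating in-frame deletion in one CTNNB1 allele. Gene-level values do not show that deletion, and they measure RNA, not the stability or location of the protein.

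RNA was sequenced from HCT116 cells in 4 groups of 3 libraries each, to ask how ammonia, supplied as NH4Cl, alters gene expression with and without TGF-β. Control cells received neither agent. The TGF-β group received 200 pM TGF-β for 1 h, and the NH4Cl group received 10 mM NH4Cl for 24 h. The NH4Cl + TGF-β group was kept in 10 mM NH4Cl for 23 h before 200 pM TGF-β was added for 1 h. Levels are FPKM, fragments scaled to the exon length of the gene and to a total for the library, so that they can be compared between genes of different length.

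The line was checked against markers. All 7 epithelial genes examined had a mean of at least 1 FPKM, led by KRT18 at 876 FPKM and KRT8 at 860.4 FPKM, with EPCAM at 254 FPKM. Of 6 genes of differentiated colonocytes, VIL1 at 90.3 FPKM and CDX2 at 13.6 FPKM were present, while FABP1 at 0.0543, SLC26A3 at 0.182, KRT20 at 0.190 and CA2 at 0.728 FPKM were low. Genes of other cell types were also examined. Those of fibroblasts summed to 8.02 to 11.2 FPKM per library, most of it LUM at 7.79 FPKM. COL1A1 followed at 1.68 FPKM, while COL1A2 and COL3A1 were near 0. Those of endothelium summed to 1.58 to 6.84 FPKM, led by VWF at 3.01 FPKM with PECAM1 at 0.0348 FPKM, and the 3 of 6 immune genes with a row in the table summed to 0.552 to 2.19 FPKM, led by LYZ at 1.12 FPKM. The colonocyte genes summed to 95.3 to 115.5 FPKM per library and the epithelial genes to 2366 to 3573 FPKM. The group means of these sums were not tested against each other. The mean endothelial sum was 2.62 FPKM in control and 2.63 in TGF-β against 3.86 in NH4Cl and 4.11 in NH4Cl + TGF-β, and the fibroblast sum 9.04 and 8.98 against 10.4 and 10.3 FPKM. The colonocyte sum was 99.0 and 100.8 against 111.4 and 109.1 FPKM, the immune sum 1.48 and 1.53 against 1.16 and 1.196 FPKM, and the epithelial sum 2851 and 2889 against 2609 and 2759 FPKM. Their part in the results was not tested. The cells were therefore epithelial, with intestinal genes and few transcripts of the mature absorptive colonocyte.

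Replicate 3 stood apart from replicates 1 and 2 in every group. Over the 12341 genes with a mean of at least 1 FPKM, the median absolute difference of replicate 3 from the mean of the other 2 was 0.16 to 0.19 on the log2(FPKM + 1) scale. The same median between replicates 2 and 1 was 0.061 to 0.085. The mitochondrial share of reads was 4.50% to 5.12% in replicate 3 and 2.46% to 3.18% in replicates 1 and 2. Reads on genes, recovered from the FPKM, numbered 14807630 to 18191998 per library. The labels do not say whether replicates were separate cultures, so the p-values measure only the spread between these libraries, which may be technical. Each comparison was fitted both without and with the replicate number as a block, which compares libraries of the same number with each other. Adjusted p-values are over all 12341 genes, with a threshold of 0.05.

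In control cells the 10 genes spanned a wide range of levels. APCDD1 was highest at 184.6 ± 35.0 FPKM (SD, n = 3), rank 170 of the 12341 genes, and CTNNB1 followed at 125.5 ± 9.66 FPKM, rank 279. NKD1 had a level of 93.4 ± 20.9 FPKM, with no library as high as the lowest CTNNB1 library. AXIN2 at 52.0 ± 1.62 FPKM and ASCL2 at 50.7 ± 7.51 FPKM overlapped and could not be ordered. ZNRF3 was lower at 20.5 ± 1.40 FPKM. TCF7 at 7.55 ± 1.22 FPKM and LEF1 at 6.999 ± 0.682 FPKM overlapped each other, and RNF43 lay just under them at 6.20 ± 0.171 FPKM, overlapping TCF7. LGR5 was lowest at 1.34 ± 0.543 FPKM, rank 11494. Its 34 to 163 reads per library make it the least precise of the 10, whereas CTNNB1 had 17558 to 28746 reads. In both groups with NH4Cl, NKD1 overlapped CTNNB1 and LEF1 overlapped RNF43. The order of the other neighbours that did not overlap in control was the same in all 4 groups.

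**Figure D1:**
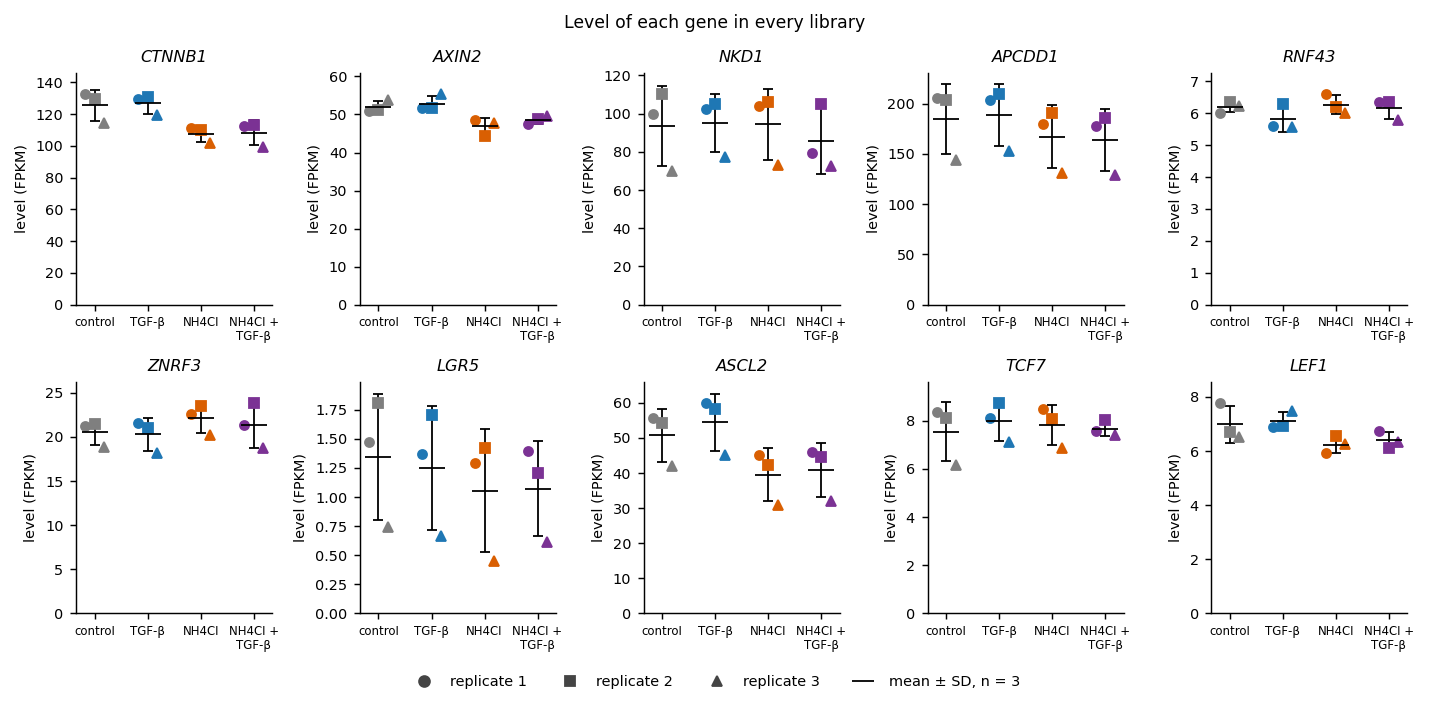
Level of each gene in FPKM (vertical axes, from 0) in the 4 groups (horizontal axes), with a circle, square and triangle for replicates 1, 2 and 3 and a bar for the mean ± SD of 3 libraries. CTNNB1 lies between 99.0 and 113.2 FPKM in the 6 libraries with NH4Cl and between 114.5 and 132.4 FPKM in the 6 without, and the triangles are lowest in every group for CTNNB1, LGR5, ASCL2, TCF7, NKD1, ZNRF3 and APCDD1.

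CTNNB1 encodes the protein that carries the Wnt signal into the nucleus and also links cadherins to the cytoskeleton at cell junctions. The gene (ENSG00000168036) lies on the plus strand at chr3:41194741-41260096 (GENCODE 29 on GRCh38), and no exon of another gene overlaps its exons. Its levels in control replicates 1, 2 and 3 were 132.4, 129.7 and 114.5 FPKM, and those in TGF-β were 129.7, 131.0 and 119.3 FPKM. In NH4Cl they were 111.4, 109.7 and 101.9 FPKM, and in NH4Cl + TGF-β 112.3, 113.2 and 99.0 FPKM. Every library with NH4Cl was lower than every library without it, and replicate 3 was the lowest library of each group. The share of all genes with such a separation by NH4Cl was not counted. In the contrast that chose the genes, the mean with NH4Cl alone differed from control by −14.2%. Between NH4Cl + TGF-β and TGF-β, measured in other libraries, the mean differed by −14.6%, with a log2 fold change of −0.23. The spread and the replicate effects are estimated from all 12 libraries, and the reason for choosing the genes does not say whether cells with TGF-β had been looked at, so the test of CTNNB1 is not independent of its choice and is read as a description of its size and spread. Its 95% interval was −0.40 to −0.055 without the block (adjusted p = 0.233, limma) and −0.29 to −0.16 with it (adjusted p = 0.00122). With the block the adjusted p was 1.05e-05 to 0.0249 over 21 alternative settings. Without the block it was under the threshold when replicate 3 of every group was left out (adjusted p = 0.00811). Fold changes are on the log2(FPKM + 1) scale, which understates changes of genes at low levels. In bulk RNA, fewer cells with a transcript and less of it per cell cannot be told apart.

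AXIN2, NKD1 and APCDD1 act against the pathway and are among its targets. AXIN2 is a scaffold of the destruction complex and one of the most widely used readouts of beta-catenin activity (minus strand, chr17:65528563-65561647, ENSG00000168646). Its levels were 51.0, 51.1 and 53.9 FPKM in control, 51.7, 51.7 and 55.3 FPKM in TGF-β, 48.4, 44.4 and 47.7 FPKM in NH4Cl and 47.4, 48.7 and 49.5 FPKM in NH4Cl + TGF-β. All 6 libraries with NH4Cl were lower than all 6 without it, as for CTNNB1, but in FPKM replicate 3 was not the lowest library of any group. This separation was not counted over all genes, so the likeness is a description. Groups did not overlap, with NH4Cl lower, for 7.92% of all genes in NH4Cl against control. In NH4Cl + TGF-β against TGF-β it was 7.45%. The mean of AXIN2 differed by −9.89% between NH4Cl and control and by −8.21% between NH4Cl + TGF-β and TGF-β. The latter was a log2 fold change of −0.12 with adjusted p = 0.366 without the block and 0.0424 with it. It passed in 7 of 21 alternative settings of the paired model. The call was lost in the paired model when any control, TGF-β or NH4Cl + TGF-β library was left out (adjusted p = 0.0513 to 0.130), and held when an NH4Cl library was left out (0.0280 to 0.0496). With replicates 1 and 2 alone it was 0.192.

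NKD1 encodes a cytoplasmic protein that binds Dishevelled and inhibits signalling (plus strand, chr16:50548330-50649249, ENSG00000140807). Its levels were 100.02, 110.1 and 70.0 FPKM in control, 102.3, 104.9 and 77.5 FPKM in TGF-β, 104.2, 105.9 and 73.0 FPKM in NH4Cl and 79.4, 105.1 and 72.6 FPKM in NH4Cl + TGF-β. The groups overlapped fully, and replicate 1 of NH4Cl + TGF-β was far below replicate 1 of the other groups. The log2 fold change of NH4Cl + TGF-β against TGF-β was −0.15 (adjusted p = 0.843 without the block and 0.184 with it). Without that library it was −0.038 with the block (adjusted p = 0.643) and −0.11 without it. In the model without the block it ranged from −0.31 to −0.041 with a library left out, so its size depended on single libraries.

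APCDD1 encodes a membrane protein that inhibits Wnt signalling at the receptor (plus strand, chr18:10454628-10489948, ENSG00000154856). Its levels were 206.1, 203.6 and 144.1 FPKM in control, 204.1, 209.4 and 152.9 FPKM in TGF-β, 180.1, 190.4 and 131.3 FPKM in NH4Cl and 177.3, 185.4 and 128.9 FPKM in NH4Cl + TGF-β. Replicate 3 was low in all groups, so the groups overlapped, yet within each replicate number both libraries with NH4Cl were lower than both without. The mean differed by −9.38% between NH4Cl and control. Between NH4Cl + TGF-β and TGF-β it differed by −13.2%, and by −13.1%, −11.4% and −15.7% within replicates 1, 2 and 3. The log2 fold change was −0.21 with a 95% interval of −0.66 to 0.24 without the block (adjusted p = 0.753) and −0.28 to −0.14 with it (adjusted p = 0.00212). Without the block it ranged from −0.35 without replicate 3 of TGF-β to −0.044 without replicate 3 of NH4Cl + TGF-β. APCDD1 thus fell in the paired model, and passed there in all 21 alternative settings (adjusted p = 5.68e-05 to 0.0326).

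RNF43 and ZNRF3 encode related membrane ubiquitin ligases that remove Frizzled receptors from the cell surface, and both are targets of the pathway they restrain. RNF43 (ENSG00000108375) lies on the minus strand at chr17:58352500-58417595 and ZNRF3 (ENSG00000183579) on the plus strand at chr22:28883592-29057487. RNF43 levels were 6.02, 6.36 and 6.21 FPKM in control, 5.60, 6.29 and 5.56 FPKM in TGF-β, 6.59, 6.20 and 6.02 FPKM in NH4Cl and 6.36, 6.35 and 5.78 FPKM in NH4Cl + TGF-β. All 12 libraries lay between 5.56 and 6.59 FPKM, and the groups overlapped. ZNRF3 levels were 21.2, 21.4 and 18.9 FPKM in control, 21.6, 21.0 and 18.2 FPKM in TGF-β, 22.6, 23.5 and 20.2 FPKM in NH4Cl and 21.3, 23.8 and 18.8 FPKM in NH4Cl + TGF-β. Replicate 3 was again the lowest library of each group, and the groups overlapped. Against TGF-β alone, NH4Cl + TGF-β gave a log2 fold change of 0.072 for RNF43 (adjusted p = 0.717 without and 0.366 with the block). For ZNRF3 it was 0.066 (adjusted p = 0.860 without and 0.302 with the block), a sign that turned in the model without the block when replicate 3 of TGF-β or replicate 2 of NH4Cl + TGF-β was left out. Neither gene passed the threshold. The paired 95% intervals were −0.043 to 0.19 and −0.027 to 0.16. Without the block they were wider, −0.068 to 0.21 for RNF43 and −0.15 to 0.28 for ZNRF3. Exons of RNF43 overlap those of TSPOAP1-AS1, at 0.221 FPKM on the opposite strand, and of AC004687.2, at 0.0142 FPKM on the same strand. They also overlap SUPT4H1, a protein-coding gene on the same strand without a value in the table.

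LGR5 and ASCL2 mark the crypt stem cell. LGR5 is a receptor for R-spondins, which protect Frizzled receptors from RNF43 and ZNRF3 (plus strand, chr12:71439770-71586310, ENSG00000139292). Its levels were 1.47, 1.81 and 0.745 FPKM in control, 1.37, 1.71 and 0.668 FPKM in TGF-β, 1.30, 1.42 and 0.448 FPKM in NH4Cl and 1.39, 1.21 and 0.617 FPKM in NH4Cl + TGF-β. Replicate 3 was the lowest library of each group by a wide margin, so that all 4 groups overlapped. The log2 fold change of NH4Cl + TGF-β against TGF-β was −0.11 (adjusted p = 0.919 without and 0.398 with the block), and without the block its sign turned when replicate 2 of TGF-β or replicate 3 of NH4Cl + TGF-β was left out. Without the block it was −0.18 with a pseudocount of 0.1 and −0.23 with limma-voom on the recovered reads. The paired 95% interval of −0.29 to 0.076 allowed a difference in either direction.

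ASCL2 encodes a transcription factor that sets the stem cell programme of the crypt (minus strand, chr11:2268495-2270952, ENSG00000183734), and no exon of another gene overlaps it. Its levels were 55.8, 54.3 and 42.1 FPKM in control and 59.95, 58.2 and 45.2 FPKM in TGF-β. They were 45.2, 42.4 and 31.0 FPKM in NH4Cl and 46.0, 44.6 and 32.0 FPKM in NH4Cl + TGF-β. In both pairs of groups the highest library with NH4Cl exceeded replicate 3 without it, so the groups overlapped, but within each replicate number the libraries with NH4Cl were lower. The mean differed by −22.0% between NH4Cl and control. It differed by −24.9% between NH4Cl + TGF-β and TGF-β, and by −23.2%, −23.4% and −29.2% within replicates 1, 2 and 3. This log2 fold change of −0.41 was the largest of the 10 genes in size, with a 95% interval of −0.82 to −0.0015 without the block (adjusted p = 0.374) and −0.49 to −0.33 with it (adjusted p = 1.72e-04). Without the block it ranged from −0.54 without replicate 3 of TGF-β to −0.25 without replicate 3 of NH4Cl + TGF-β. ASCL2 fell in the paired model and passed in all 21 alternative settings there (adjusted p = 8.55e-07 to 0.00896).

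TCF7 and LEF1 encode DNA-binding partners of beta-catenin that are also its targets. TCF7 (ENSG00000081059) lies on the plus strand at chr5:134114711-134151865, and its levels were 8.37, 8.13 and 6.15 FPKM in control, 8.10, 8.74 and 7.12 FPKM in TGF-β, 8.48, 8.10 and 6.89 FPKM in NH4Cl and 7.57, 8.03 and 7.41 FPKM in NH4Cl + TGF-β. No group was set apart, and replicate 3 was the lowest library of each. Exons of TCF7 overlap those of SKP1, at 13.1 FPKM on the opposite strand, and as it is unknown whether reads were assigned by strand, the values of TCF7 are uncertain. LEF1 (ENSG00000138795) lies on the minus strand at chr4:108047545-108168956, and its levels were 7.78, 6.71 and 6.51 FPKM in control, 6.89, 6.94 and 7.49 FPKM in TGF-β, 5.92, 6.54 and 6.25 FPKM in NH4Cl and 6.74, 6.13 and 6.33 FPKM in NH4Cl + TGF-β. All LEF1 libraries of NH4Cl + TGF-β were below those of TGF-β, while the NH4Cl and control libraries overlapped. The log2 fold change of NH4Cl + TGF-β against TGF-β was −0.13 for LEF1 (adjusted p = 0.480 without and 0.197 with the block) and −0.048 for TCF7 (adjusted p = 0.918 without and 0.644 with the block). The TCF7 sign turned without the block when replicate 2 of TGF-β was left out, and with the block when replicate 1 of NH4Cl + TGF-β was left out (0.0059). LEF1-AS1, an RNA on the opposite strand with exons that overlap LEF1, had 0.129 FPKM, and the genes that overlap NKD1 (AC007608.1) and AXIN2 (AC004805.1) had 0.329 and 0.0382 FPKM. The antisense gene AC078860.1, which overlaps LGR5, has no value in the table.

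**Figure D2:**
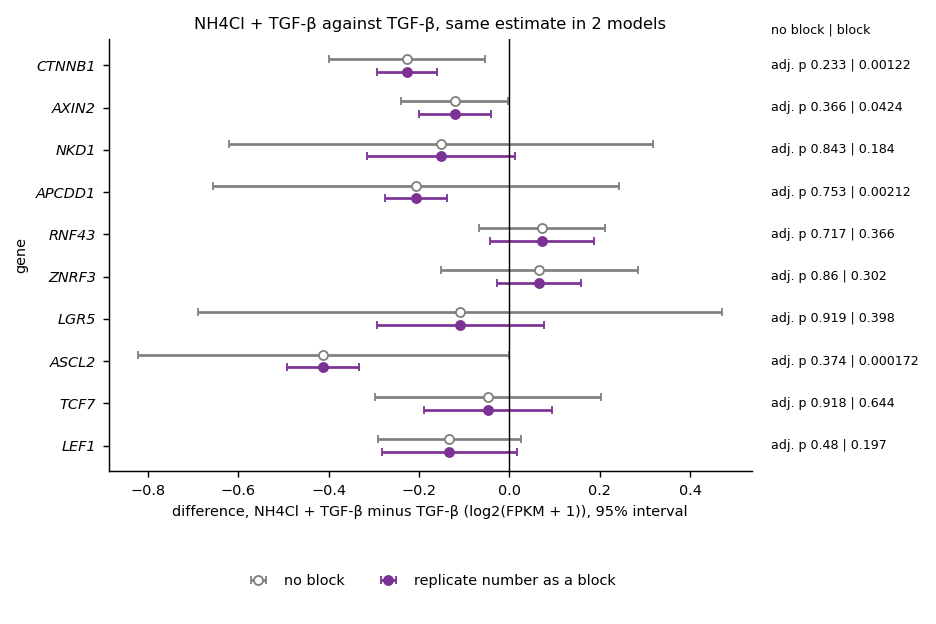
Difference between NH4Cl + TGF-β and TGF-β for each gene on the log2(FPKM + 1) scale (horizontal axis) with 95% intervals, open grey symbols without and filled purple symbols with the replicate number as a block, 3 libraries per group. The estimate is the same in both models, and with the block the intervals of CTNNB1 (−0.29 to −0.16), ASCL2 (−0.49 to −0.33), APCDD1 (−0.28 to −0.14) and AXIN2 (−0.20 to −0.041) lie below 0.

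Among the targets, the RNA of ASCL2 and APCDD1 was lower with NH4Cl in TGF-β-treated cells once libraries of the same replicate number were compared. AXIN2 was called too, but in 7 of 21 alternative settings, and none of the 10 genes passed the threshold as higher. CTNNB1 RNA was lower too, which is what led to its choice, and its call is counted but supports nothing. Without the block, 0 of 10 genes passed the threshold in either direction with limma, where 0.251% of all genes tested passed as lower and 0.778% as higher. Of the 10, 3 had an unadjusted p under 0.05, as had 1642 of the 12341 genes, and limma-voom on the recovered reads called 0 as well. With the block, 4 of 10 passed as lower, or 3 of 9 without CTNNB1, against 8.48% of all genes, and 0 as higher, against 10.3%. The count fell to 3, without AXIN2, with TPM scaling, no filter on mean FPKM, no intensity trend, only the groups compared or replicates 1 and 2 alone. The share of all genes passing as lower fell as well, to 7.09%, 2.58%, 7.89%, 3.59% and 5.62% in that order. Limma-voom with the block called 5 as lower, against 11.5% of all genes, NKD1 being the fifth (adjusted p = 0.0436). The median log2 fold change of the 10 genes was −0.13 and that of all genes −5.71e-05. In 3 of 10 genes (CTNNB1, AXIN2 and LEF1) every NH4Cl + TGF-β library was below every TGF-β library, which held for 7.45% of all genes. In 5 of 10 the level was lower within all 3 replicate numbers, against 25.2% of all genes, and in 1 (RNF43) higher within all 3, also against 25.2%. The genes were chosen with CTNNB1 already seen to be lower with NH4Cl, so these counts describe the 10 genes and are not a test of them as a set. The mitochondrial share of reads differed between replicate numbers, and its part in the result was not tested. The part of replicate 3, which stood apart, was looked at only by leaving libraries out. The paired calls of ASCL2 and APCDD1 also passed with replicates 1 and 2 alone (adjusted p = 0.00278 and 0.0262, limma). For CTNNB1 the value was 0.0138, given as a description only.

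**Figure D3:**
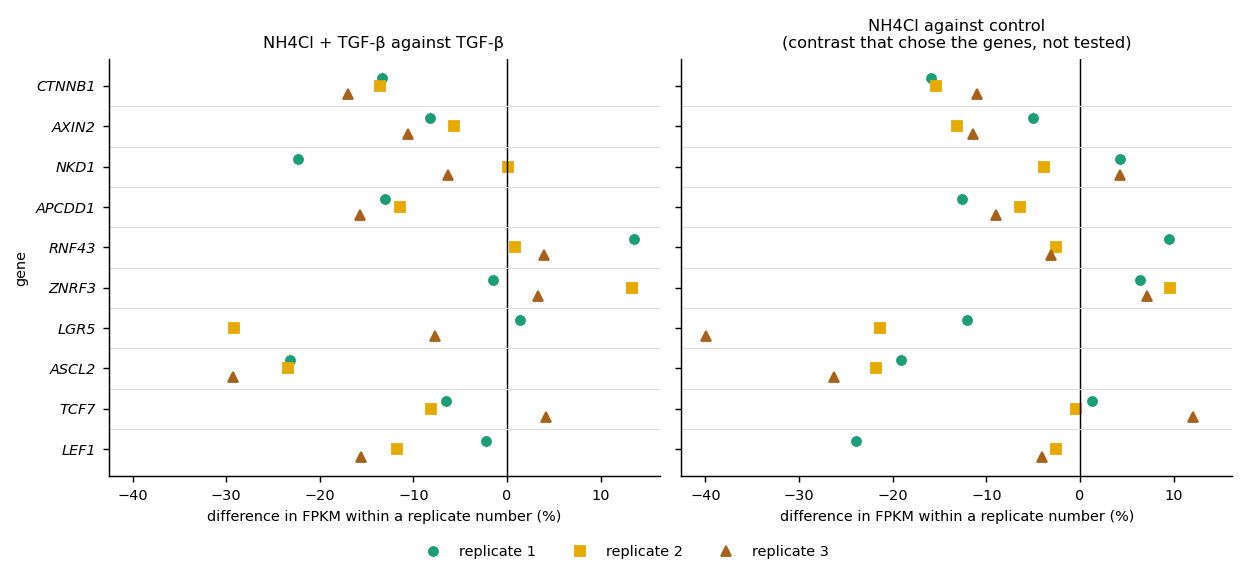
Difference in FPKM in percent (horizontal axes) within replicates 1, 2 and 3 (circles, squares and triangles) for each gene, between NH4Cl + TGF-β and TGF-β (left) and between NH4Cl and control (right, the contrast that chose the genes). CTNNB1, AXIN2, APCDD1, ASCL2 and LEF1 lie below 0 in all 3 replicate numbers on both sides, with ASCL2 between −29.2% and −23.2% on the left.

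Between NH4Cl and control, the contrast from which the genes were selected, 6 of 10 genes were lower within all 3 replicate numbers (25.3% of all genes). These were CTNNB1, AXIN2, LGR5, ASCL2, LEF1 and APCDD1. In 1 of 10, ZNRF3, the level was higher within all 3 (26.4% of all genes). In CTNNB1 and AXIN2 every NH4Cl library was also below every control library (7.92% of all genes). The mean differed by −21.4% for LGR5, −10.9% for LEF1, 3.58% for TCF7, 1.05% for NKD1, 1.18% for RNF43 and 7.76% for ZNRF3. Nothing is read from these counts, since the choice of genes used this contrast. Whether the choice also used cells with TGF-β is not stated.

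TGF-β for 1 h left no call among the 10 genes. In TGF-β against control, 0 of 10 passed without the block (0% of all genes) and 0 with it (0.0081% of all genes, which is ID1 alone, named after its value was seen). Of all 12341 genes, 103 had an unadjusted limma p under 0.05 without the block and 422 with it. Among the 10 genes, limma gave 0 such p-values without the block and 1 with it, for ASCL2. Its mean was 7.36% higher with TGF-β and it was higher within all 3 replicate numbers, with a log2 fold change of 0.10 and adjusted p = 1.00 in both models. CTNNB1 differed by 0.883% and AXIN2 by 1.71%. In NH4Cl + TGF-β against NH4Cl, 0 of 10 passed without the block (0% of all genes) and 0 with it (0.0081%, again ID1 alone). Among the 10, 0 had an unadjusted p under 0.05 in either model. Of all 12341 genes, 165 had such a p without the block and 879 with it. There CTNNB1 differed by 0.489%, ASCL2 by 3.39% and AXIN2 by 3.59%. The levels of all 10 genes overlapped between groups in both comparisons. Limma-voom on the recovered reads called 0 of 10 in each of them, with and without the block. Both comparisons share libraries with NH4Cl against control, and the paired 95% intervals for CTNNB1 were −0.052 to 0.081 and −0.061 to 0.072. Without the block these intervals were −0.16 to 0.19 and −0.17 to 0.18.

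The interaction of NH4Cl and TGF-β asks whether the difference with NH4Cl depended on TGF-β. It was past the threshold for 0 of 10 genes without the block (0% of all genes) and 0 with it (0%). Among the 10, 0 had an unadjusted p under 0.05 in either limma model. Of all 12341 genes, 115 had such a p without the block and 537 with it. Limma-voom called 0 of 10 with and without the block. The interaction contains the contrast that chose the genes, so no more than this count is read from it.

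The difference of replicate 3 from the mean of replicates 1 and 2 was as large as the differences with NH4Cl for several of the genes. It was −29.6% to −26.0% for APCDD1 over the 4 groups, −29.5% to −23.5% for ASCL2, −33.4% to −21.3% for NKD1 and −67.0% to −52.6% for LGR5. For CTNNB1 it was −12.6% to −7.84%, for ZNRF3 −16.8% to −11.4% and for TCF7 −25.5% to −4.96%. AXIN2 went the other way, 2.86% to 7.07% higher in replicate 3 of all 4 groups, while LEF1 and RNF43 had both signs. The block removes differences between replicate numbers that are common to the 4 groups.

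**Figure D4:**
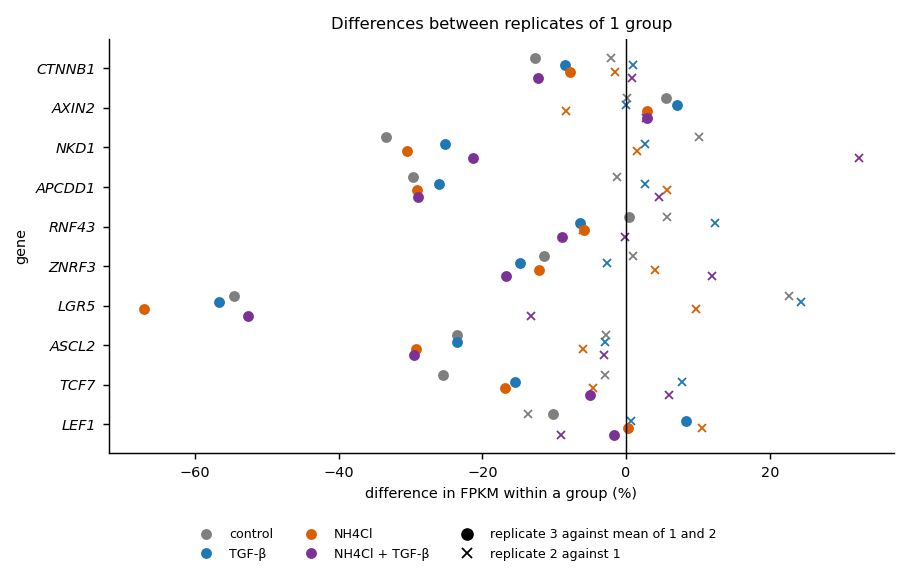
Difference in FPKM in percent (horizontal axis) of replicate 3 from the mean of replicates 1 and 2 (filled circles) and of replicate 2 from replicate 1 (crosses) for each gene, coloured by group. APCDD1 lies between −29.6% and −26.0% and ASCL2 between −29.5% and −23.5% in replicate 3, AXIN2 lies between 2.86% and 7.07%, and the crosses of CTNNB1 lie between −2.09% and 1.02%.

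The genes whose pattern over the 12 libraries was most like that of CTNNB1 were sought among the other 12340 genes tested, as the smallest root mean square difference of log2(FPKM + 1) centred on each gene's mean. The 5 nearest were TSPAN17 (0.030), TRAF3 (0.031), AP2B1 (0.032), GPS1 (0.033) and DIO3 (0.039), where the median over all genes was 0.18. They lie on chromosomes 5, 14, 17, 17 and 14. Among the other 9 genes followed here, LEF1 was nearest at 0.0998 and AXIN2 next at 0.12, and LGR5 was farthest at 0.23. The likeness is a description and includes the libraries that chose CTNNB1.

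Other genes of the pathway were counted from lists written for this work, with earlier results of these data known. The counts below therefore describe the lists and are not a test of them as sets. Of 114 genes written, 108 were in the table and 81 had a mean of at least 1 FPKM. In NH4Cl + TGF-β against TGF-β, 1 of the 81 was lower and 0 higher without the block, with 17 at an unadjusted p under 0.05, where 0.251% of all genes passed as lower, 0.778% as higher and 1642 of 12341 had such a p. With the block 16 were lower and 11 higher, against 8.48% and 10.3% of all genes. The median log2 fold change was −0.026, with 33 genes above 0 and 48 below. All 27 paired calls had the same direction in every alternative setting, and 12 of them passed the threshold in every one.

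Ligands moved in both directions. Of 10 ligands and secretion genes tested, 3 were lower and 2 higher with the block, against 8.48% and 10.3% of all genes. WNT10A, the ligand with the highest level, went from 17.9 ± 1.20 FPKM in TGF-β to 11.3 ± 2.35 FPKM in NH4Cl + TGF-β (SD, n = 3), a log2 fold change of −0.63, and was the gene called in both models (adjusted p = 0.0430 without and 5.94e-04 with the block). Without the block that call was lost when no filter on the mean FPKM was used or when only the groups compared were fitted. In those settings 0.0505% and 0% of all genes passed as lower. Without the block the call was not examined with a library left out, with limma-voom or with replicates 1 and 2 alone. WNT6 fell by 0.55 on the log2 scale (adjusted p = 0.00400 with the block) and WNT7A rose by 0.45 (0.00808, past the threshold in 19 of 20 alternative settings). The acyltransferase PORCN and the ligand carrier WLS, at 9.57 and 13.9 FPKM, did not pass (adjusted p = 0.143 and 0.573 with the block). None of 12 receptor genes passed in either model. LRP5, the co-receptor with the highest level at 54.6 FPKM, had a log2 fold change of −0.13 (adjusted p = 0.114 with the block).

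Of 13 secreted antagonists written, 6 were tested, and with the block 1 was lower and 2 higher, against 8.48% and 10.3% of all genes. NOTUM, a lipase that inactivates Wnt ligands and is itself a target, was at 281.3, 283.1 and 244.1 FPKM in TGF-β and at 210.4, 205.3 and 168.3 FPKM in NH4Cl + TGF-β, so that the groups did not overlap. It fell by 0.47 on the log2 scale (adjusted p = 0.124 without and 6.54e-05 with the block). SFRP5, which binds Wnt ligands, was at 61.4, 62.5 and 47.0 FPKM in TGF-β and at 81.4, 83.5 and 66.1 FPKM in NH4Cl + TGF-β, again without overlap, and rose by 0.43 (adjusted p = 0.210 without and 6.27e-04 with the block). DKK4, an antagonist that binds LRP co-receptors, rose by 0.26 (adjusted p = 0.0962 without and 0.00550 with the block).

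In the destruction complex and among Dishevelled genes, 2 of 18 were lower and 4 higher with the block, against 8.48% and 10.3% of all genes, so that the lower count is near the background. AXIN1 had a log2 fold change of 0.19 (adjusted p = 0.0362 with the block), the opposite sign to AXIN2, and GSK3B one of 0.17 (0.0324). DVL1 rose by 0.15 (0.0333), while DVL3 fell by 0.22 (0.0114) and GSK3A by 0.13 (0.0485). These calls were lost in part of the alternative settings, passing in 6 of 21 for GSK3A, 10 for AXIN1, 11 for GSK3B, 13 for DVL1 and 18 for DVL3. APC at 4.15 FPKM did not pass, with a log2 fold change of −0.18 (adjusted p = 0.108 with the block). Of 12 nuclear partners, 3 were lower and 0 higher with the block, against the same shares of all genes. These were TCF7L2, the main TCF factor of the colon (−0.17, adjusted p = 0.0219), the co-repressor TLE3 (−0.16, 0.0304) and the acetyltransferase CREBBP (−0.22, 0.0293), which passed in 16, 13 and 13 of 21 alternative settings.

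Beta-catenin also binds cadherins, and 1 of 5 genes of that junction was lower with the block, where 8.48% of all genes were. A single call in a list of this size is not read as a result for the list. CDH1, which encodes E-cadherin, had a log2 fold change of −0.19 (adjusted p = 0.678 without and 0.0253 with the block), past the threshold in 14 of 21 alternative settings. CTNNA1, which encodes alpha-catenin and has a level of 119.5 FPKM close to that of CTNNB1, had −0.0089 (adjusted p = 0.858 with the block), and JUP, which encodes the beta-catenin relative plakoglobin, had −0.061 (0.367).

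Other targets also moved in both directions, and 7 of 20 were lower and 3 higher with the block, NOTUM included, against 8.48% and 10.3% of all genes. MMP7, a secreted protease, was at 28.9, 31.1 and 12.6 FPKM in TGF-β and at 18.8, 18.3 and 9.18 FPKM in NH4Cl + TGF-β, lower within each replicate number but with overlapping groups. It fell by 0.58 on the log2 scale (adjusted p = 0.599 without and 0.00153 with the block). EPHB2, a receptor that positions crypt cells, fell by 0.34 (0.00172 with the block), the cell-cycle regulator CCND1 by 0.25 (5.94e-04) and BMP4 by 0.24 (0.00214). MYC rose by 0.25 (0.00291). Apart from WNT10A, none of the paired calls in these lists passed without the block.

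**Figure D5:**
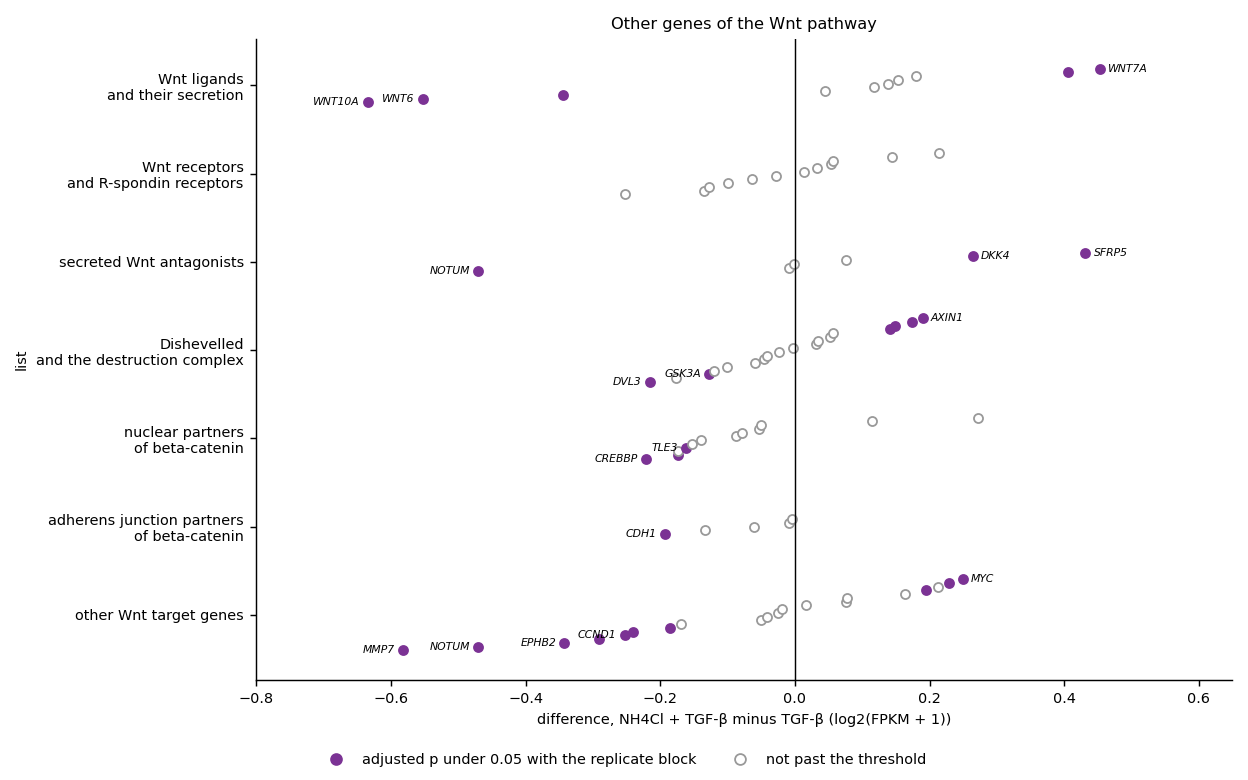
Difference between NH4Cl + TGF-β and TGF-β on the log2(FPKM + 1) scale (horizontal axis) for the other Wnt pathway genes tested, by list (vertical axis), filled where adjusted p was under 0.05 with the replicate block. Filled points lie on both sides of 0 among ligands, antagonists, destruction complex genes and targets, from −0.63 for WNT10A to 0.45 for WNT7A.

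RefSeq promoters (GRCh38.p14, 250 bases before to 50 after a start) were searched for the core letters that TCF and LEF factors bind, CTTTGAA or CTTTGAT or CTTTGTA or CTTTGTT, on both strands. Of the 10 genes, 5 had an entry (APCDD1, CTNNB1, LEF1, RNF43 and TCF7), with 7 promoters in all. The promoter table used held no entry for AXIN2, LGR5, ASCL2, NKD1 and ZNRF3. The letters were in 1 of those 7, against 13.8% of the 35116 promoters, and in 10 of 84 promoters (11.9%) of the other pathway genes tested. The 250 upstream bases are shown for 3 genes, from 5′ to 3′ on the strand of the gene, with matches in capitals. APCDD1 was taken because it fell in the paired model and has no match, TCF7 because its second start holds the only match among the 10 genes, and MMP7 because it fell and holds 2, a choice made after the matches were seen. They are chr18:10454385-10454634 (plus strand) for APCDD1, chr5:134123368-134123617 (plus strand) for TCF7 and chr11:102530748-102530997 (minus strand) for MMP7.
APCDD1: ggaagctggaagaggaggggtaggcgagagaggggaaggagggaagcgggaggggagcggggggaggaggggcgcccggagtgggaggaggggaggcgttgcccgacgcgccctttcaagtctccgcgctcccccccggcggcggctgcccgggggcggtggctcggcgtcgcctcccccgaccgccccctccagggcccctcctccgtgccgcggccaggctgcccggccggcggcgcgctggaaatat
TCF7: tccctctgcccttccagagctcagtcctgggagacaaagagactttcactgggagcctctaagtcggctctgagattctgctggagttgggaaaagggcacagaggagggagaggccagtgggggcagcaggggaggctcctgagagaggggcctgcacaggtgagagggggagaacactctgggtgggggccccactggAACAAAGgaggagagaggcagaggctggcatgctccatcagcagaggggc
MMP7: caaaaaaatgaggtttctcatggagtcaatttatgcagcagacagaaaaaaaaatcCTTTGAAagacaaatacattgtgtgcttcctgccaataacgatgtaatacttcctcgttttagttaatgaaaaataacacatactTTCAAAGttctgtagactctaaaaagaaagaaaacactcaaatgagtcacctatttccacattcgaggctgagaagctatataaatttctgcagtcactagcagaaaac
The TCF7 match begins 50 bases before its start, and those of MMP7 begin 194 and 109 bases before. The TCF7 window lies in an intron of the annotated gene, and the last 7 bases of the APCDD1 window and 6 of the MMP7 window are exonic in GENCODE 29. The windows differ in base composition, with G or C at 77.2% of the APCDD1 positions, 62.0% of the TCF7 positions and 33.6% of the MMP7 positions. A match is a run of letters and not a bound site, and its absence says only that the letters are not in this window.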

How the data were processed

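RNA from 12 HCT116 libraries was sequenced. The labels describe extraction with an RNeasy Plus Mini kit and the methods section a PureLink kit. Per the submitters' notes the authors trimmed reads with Trimmomatic 0.36, aligned them to GRCh38 with STAR 2.5.2b, counted them with featureCounts of Subread 1.5.2 and deposited FPKM values for 25733 genes. Doses and times are those of the study's methods, which name HTSeq for counting.

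The members and all gene lists were chosen with earlier results of these data known. Genes with a mean of at least 1 FPKM (12341) were fitted with limma 3.58.1 in R 4.3.3 on log2(FPKM + 1), with an intensity trend, 4 group means over all 12 libraries, 2-sided tests and Benjamini-Hochberg adjustment over these genes at 0.05. A second fit added the replicate number as a block. Neither the labels nor the methods say what the number stands for. After the group means were removed, libraries of the same number correlated in all 18 pairs, with r across genes of 0.349 to 0.774. Read counts were recovered from FPKM and exon length, with 100% of values within 0.05 of a whole read, and used for limma-voom. Other alternatives were a pseudocount of 0.1, no filter or a mean of at least 5 FPKM, TPM scaling, median centring, no intensity trend, only the groups compared, replicates 1 and 2 alone, and each library left out. Tables and plots used Python 3.11.15 with numpy 2.4.6, pandas 2.3.3 and matplotlib 3.10.9.

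Named were all members and the 5 genes most like CTNNB1. From each other list, the 3 genes with the highest mean FPKM could be named, with up to 3 of the largest changes among genes that passed with the block and moved the same way in all 3 replicate numbers. MYC, CCND1, APC, AXIN1, GSK3B, TCF7L2 and CDH1 were named in any case. Promoters and their starts were from RefSeq, and gene positions from GENCODE 29.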

Additional observations from a re-analysis of the deposited data

How the results depend on the processing

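Of 182 counts of genes past the threshold under the alternatives, over 9 results, 176 were within 1.5 times the reported count and 6 were not. The 176 include TGF-β against control, NH4Cl + TGF-β against NH4Cl and the interaction, where every count was 0. At most 0.0081% of all genes passed there in the main fits, so those counts could hardly differ and 176 is no measure of stability. In NH4Cl + TGF-β against TGF-β, where 0 of the 10 genes passed without the replicate block, 3 passed as lower with replicates 1 and 2 alone (CTNNB1, ASCL2 and APCDD1), where 5.98% of all genes did, and 4 with the block, where 8.48% did. Conversely the count with the block was 4 and without it 0. Of the other Wnt pathway genes, 1 passed without the block, 0 without a filter on mean FPKM, 0 when only the groups compared were fitted and 27 with the block. Without the block they were not counted with a library left out, with limma-voom or with replicates 1 and 2 alone. Of all genes, 0.0505% passed as lower and 0.148% as higher without the filter and the block. With only the groups compared it was 0% in either direction. The fit of only the groups compared has fewer libraries. For the other changes the cause was not tested. With each library left out in turn, the count of the 10 genes was 0 to 0 without the block and 3 to 4 with it. It was 0 to 0 in both models for TGF-β against control, NH4Cl + TGF-β against NH4Cl and the interaction, where the block changed no call.

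Of 159 values of the log2 fold change in NH4Cl + TGF-β against TGF-β, 147 kept their direction and their side of the threshold, 7 moved past it (CTNNB1, ASCL2 and APCDD1 with replicates 1 and 2 alone, and these and AXIN2 with the block) and 5 reversed, all of genes that did not pass. With a library left out, LGR5 ranged from −0.31 to 0.060, reversing without TGF-β replicate 2 (0.039) and without NH4Cl + TGF-β replicate 3 (0.060). TCF7 ranged from −0.12 to 0.012, reversing without TGF-β replicate 2. ZNRF3 ranged from −0.015 to 0.15, reversing without TGF-β replicate 3 (−0.0071) and without NH4Cl + TGF-β replicate 2 (−0.015). The cause was not tested. LGR5, at a mean of 1.18 FPKM, gave no value under the filter of at least 5 FPKM.

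Without the block, CTNNB1, ASCL2 and APCDD1 passed only when replicate 3 of every group was left out. The replicate numbers are assumed to pair libraries, and what they stand for is not stated. FPKM are relative to a total set for each library, which is not its plain number of reads. A change in total RNA per cell would not be seen. LGR5 rests on 34 to 163 reads per library. The values are RNA levels and give no measure of beta-catenin protein.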
